A study of Rattus norvegicus with 12 samples.

Results

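Transcripts of 10 genes that encode chaperones and disulfide isomerases of the endoplasmic reticulum (ER) were followed in the rat choroid plexus, the epithelium of the brain ventricles that secretes cerebrospinal fluid (CSF). The genes were HSPA5, HSP90B1, HYOU1, DNAJB11, CALR, CANX, PDIA3, PDIA4, PDIA6 and P4HB, and they were found by symbol among the 32883 Ensembl genes of each library. All 10 had a mean over the libraries of 1 TPM (a length-corrected share of all transcripts) or more, as did 12511 genes in total, and these were tested. For 8 of the genes the symbol came from the study's table of the most abundant genes, while HYOU1 and PDIA4 were paired with an identifier only through its table of differentially expressed genes. Entry of HYOU1 and PDIA4 thus depended on a difference between the phases in these samples, and counts are given with and without them. The abundance list did not follow the level over both phases either. It held UFD1 (means of 51.9 TPM in light and 43.4 TPM in dark) but not PDIA4 (46.8 and 91.2 TPM) or XBP1 (42.9 and 59.7 TPM). It may therefore lean toward genes that are higher in the light phase.

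The study sequenced RNA of whole choroid plexus from 12 male Sprague-Dawley rats, 9 weeks old, with 1 library per rat. Of these, 6 rats were sampled in the light phase (ZT8, 8 h after lights on) and 6 in the dark phase (ZT20, 20 h after lights on) of a cycle with 12 h of light and 12 h of darkness. The labels name no genotype beyond the strain, and ketamine with xylazine was the anaesthetic of the sampling procedure in both phases. The comparison asks which transcripts differ between the peak light phase and the peak dark phase, at 1 time point in each.

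Secretory and membrane proteins enter the ER unfolded. HSPA5 (BiP), the Hsp70 chaperone of the lumen, binds exposed hydrophobic stretches and works with the Hsp90 chaperone HSP90B1 (GRP94), the J-domain protein DNAJB11 (ERdj3) and the nucleotide exchange factor HYOU1 (GRP170). CALR and CANX, a soluble and a membrane-bound lectin, hold glycoproteins that carry a monoglucosylated glycan, together with the disulfide isomerase PDIA3 (ERp57). PDIA4 (ERp72), PDIA6 (P5) and P4HB (PDI) also form and rearrange disulfide bonds, and P4HB is in addition a subunit of collagen prolyl 4-hydroxylase. When unfolded proteins accumulate, the transcription factors ATF6 and XBP1 of the unfolded protein response act on ER stress response elements in the promoters of many ER chaperone genes.

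Values are TPM divided by a scaling factor for each library (0.937 to 1.05 in the light phase, 0.990 to 1.02 in the dark phase). TPM is per transcript length, so that levels can be compared between genes. Absolute read numbers are unknown, and depth relative to the mean of the libraries, estimated from the steps of FPKM, was 0.880 to 1.37 for light phase libraries and 0.891 to 1.09 for dark phase libraries. The epithelial markers were high, with a sum of the 8 markers of 251380 to 335750 TPM in light phase rats and 292990 to 321860 TPM in dark phase rats, nearly all of it transthyretin (TTR). Of these markers CLIC6, KL and OTX2 were called up in darkness and AQP1 up in light. Only some markers of other cells had a symbol here: 2 of 6 of fibroblasts, 2 of 6 of endothelium, 2 of 5 of mural cells, 1 of 6 of macrophages, 1 of 4 of ependyma, 1 of 4 of red blood cells and 0 of 4 of neurons. Among them FLT1 of endothelium was called higher in the dark phase, with a log2 fold change of 0.35, and TAGLN of mural cells and DYNLRB2 of ependyma were called lower, by 0.73 and 0.38. Marker sums of the other cells overlapped between phases, from 129 to 218 TPM in light and 143 to 225 TPM in dark for fibroblasts and from 172 to 400 and 163 to 246 TPM for mural cells. The part of these markers in the results was not tested. In bulk tissue, fewer cells of a type and less RNA per cell cannot be told apart.

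To show what the chaperone promoters hold, the 300 bases around each annotated start (250 before, 50 after) were searched on both strands. Entries of the RefSeq promoter table of the assembly GRCr8 were matched for 8 of the 10 genes, all but PDIA3 and PDIA6, and HYOU1 had 2 entries. A gene was counted where any of its entries held the motif. The ER stress response element (ERSE, CCAAT, then 9 bases of any kind, then CCACG) stood in 4 of the 8 promoters, against 21 of all 27457 genes with a promoter (0.0765%). ERSE-II (ATTGG, then any base, then CCACG) stood in another 2, against 17 genes (0.0619%). Together 6 of the 8 held one of these elements, as did 38 of all genes (0.138%). In the 250 bases before the start alone, 5 of the 8 held one, as did 35 of all genes (0.127%), since the match of DNAJB11 lies at the start site. Both elements were searched because they are known from promoters of ER chaperone genes. The contrast with all genes is therefore not an enrichment discovered here. Such a match is a description of the letters in this window, and no binding was measured.

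The ERSE of HSPA5 began 43 bases before the start, in the 250 bases at chr3:38452766-38453015 on the plus strand. The region of P4HB, shown because it held neither element, was chr10:106346912-106347161 on the minus strand. In both sequences the letters run 5′ to 3′ in the direction of the gene and capitals mark the element.
HSPA5: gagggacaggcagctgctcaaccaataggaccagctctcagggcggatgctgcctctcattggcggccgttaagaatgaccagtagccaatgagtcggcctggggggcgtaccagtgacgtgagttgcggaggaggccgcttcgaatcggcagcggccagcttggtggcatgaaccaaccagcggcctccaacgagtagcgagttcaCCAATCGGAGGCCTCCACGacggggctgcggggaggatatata
P4HB: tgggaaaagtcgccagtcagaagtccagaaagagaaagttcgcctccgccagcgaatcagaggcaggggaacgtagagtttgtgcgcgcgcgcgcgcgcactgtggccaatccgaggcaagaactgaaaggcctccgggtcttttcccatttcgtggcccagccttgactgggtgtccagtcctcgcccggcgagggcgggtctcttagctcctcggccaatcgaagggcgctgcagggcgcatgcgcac

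HSP90B1 held 2 ERSE, and CALR and CANX 1 each. These are shown in capitals with flanking bases, since distance from the start and orientation differed. The stretch of HSP90B1 was chr7:23012327-23012489 on the minus strand, with 1 ERSE in each orientation beginning 176 and 72 bases before the start. CALR, at chr19:40213117-40213173 on the plus strand, held it in the reverse orientation 232 bases before the start. CANX, at chr10:35158049-35158107 on the minus strand, held it in the forward orientation 230 bases before the start.
HSP90B1: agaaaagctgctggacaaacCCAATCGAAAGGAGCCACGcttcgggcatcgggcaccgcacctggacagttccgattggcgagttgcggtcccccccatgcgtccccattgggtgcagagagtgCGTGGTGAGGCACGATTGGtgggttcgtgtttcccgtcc
CALR: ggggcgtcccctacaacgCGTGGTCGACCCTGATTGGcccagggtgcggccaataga
CANX: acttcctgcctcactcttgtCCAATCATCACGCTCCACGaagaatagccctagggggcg

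HYOU1 and DNAJB11 held ERSE-II, again in capitals. HYOU1 carried it in the reverse orientation beginning 188 and 88 bases before its first annotated start, at chr8:53602674-53602824 on the plus strand. The upstream copy overlapped the element TGACGTGG (UPRE), which 187 of all genes held (0.681%), and the capitals cover both. DNAJB11 carried it at the start site itself, at chr11:91672800-91672830 on the minus strand.
HYOU1: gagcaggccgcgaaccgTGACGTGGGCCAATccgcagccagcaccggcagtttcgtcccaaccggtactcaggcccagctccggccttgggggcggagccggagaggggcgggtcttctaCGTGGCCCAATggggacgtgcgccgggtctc
DNAJB11: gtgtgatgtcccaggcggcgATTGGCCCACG

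The promoter of PDIA4 held neither element and had a single CCACG, the 3′ part of ERSE, downstream of the start. All 8 genes had a promoter with at least 1 CCACG, as did 34.1% of all genes. The promoter at the second annotated start of HYOU1 held none of the motifs searched. The E-box CACGTG stood only in the CANX promoter (7.08% of all genes), and the cAMP response element TGACGTCA stood in none of the 8 (2% of all genes).

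**Figure D1:**
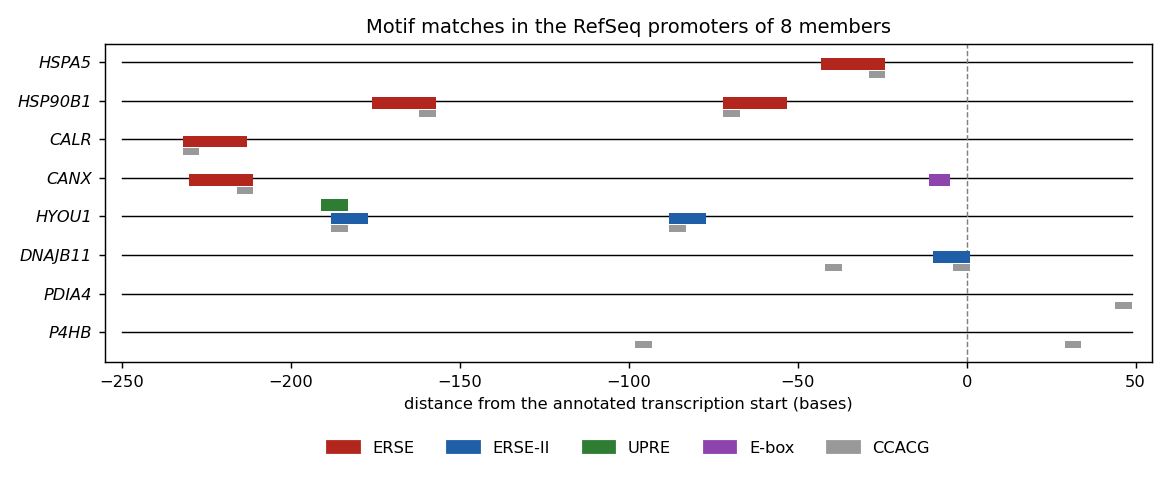
Position of each motif in the promoters of the 8 genes with a RefSeq entry, in bases from the annotated start (HYOU1 at its first start). ERSE or ERSE-II matches appear in 6 of the 8 promoters, and those of PDIA4 and P4HB show only CCACG.

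Transcripts of 9 of the 10 genes were higher in the dark phase, and only P4HB was not called. HSPA5, PDIA4 and HYOU1 approached or passed a doubling, HSP90B1 and CALR rose by 73.7% and 53.5%, and PDIA6, DNAJB11, PDIA3 and CANX rose by between 12.7% and 23.9%. For each of the 9 genes the lowest library of the dark phase lay above the highest of the light phase. Over all 12511 genes, 9.35% were called higher in the dark phase, 8.18% were called lower there, and 4.95% were higher without overlap. Calls toward the dark phase made up 53.3% of all calls, or 64.1% when libraries were rescaled without the 10 most abundant genes, where 9 of the 10 genes were called as well. Without HYOU1 and PDIA4 the count was 7 of 8, and the 1997 tested genes of the abundance list gave 8.71% called up in darkness and 13.9% called up in light. The median log2 fold change was 0.46 over the 10 genes and 0.31 over the 8, against -0.01 over all genes tested, of which the middle 90% lay between -0.39 and 0.34. Calls are from limma on log2(scaled TPM + 0.5) at a false discovery rate (FDR) of 0.05, adjusted by Benjamini-Hochberg over all genes tested, and a positive log2 fold change stands for a higher level in the dark phase. The 12 libraries also differed in the ratio between their FPKM and TPM totals, which was 0.953 to 0.987 in the light phase and 0.934 to 0.960 in the dark phase. The ratio thus partly followed the phase (mean 0.971 in light, 0.945 in dark). A fit with both separates them only in part, with wider standard errors for the 10 genes. With this ratio as a covariate 8 of the 10 genes were called, against 1.80% of all genes called higher, and CANX was not called, at a log2 fold change of 0.21 ± 0.05 (FDR = 0.0555) against 0.17 ± 0.03 without the covariate.

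**Figure D2:**
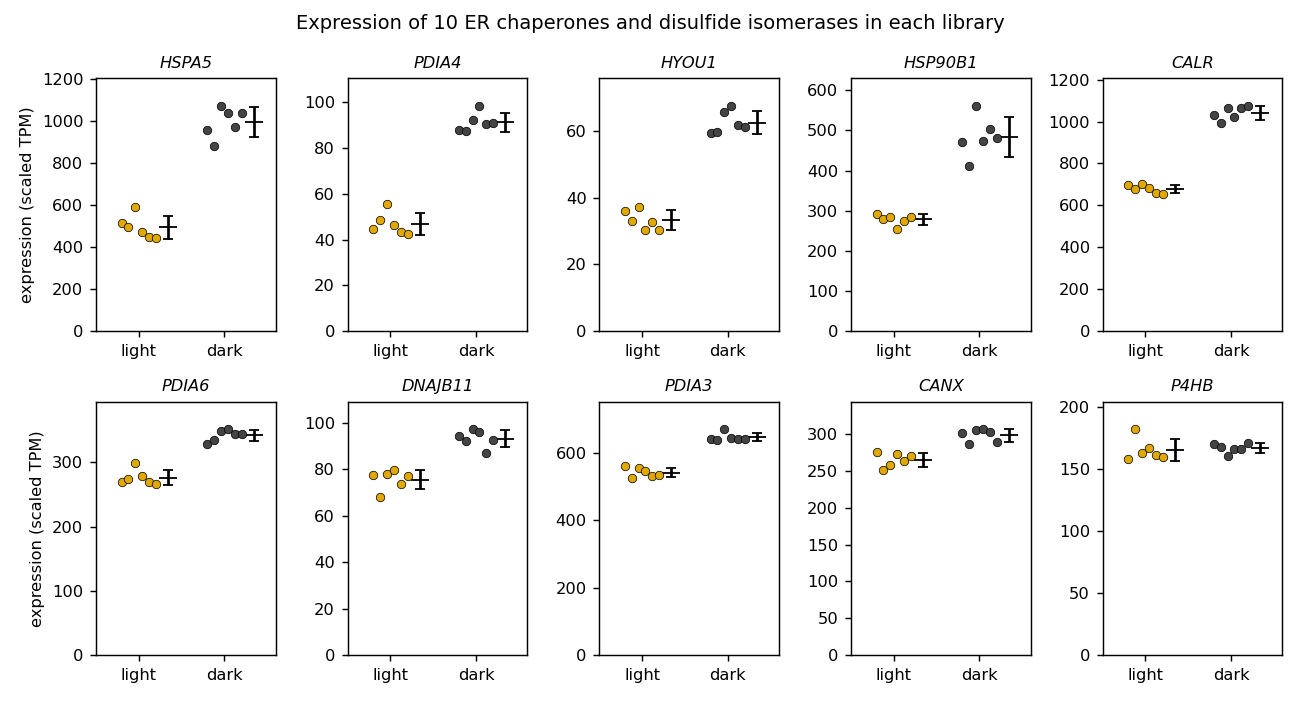
Scaled TPM of each of the 10 genes in each library, by phase, with the mean and SD of 6 rats. The phases do not overlap for 9 genes, and for P4HB the light phase (158 to 182 TPM) spans the dark phase (161 to 171 TPM).

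HSPA5 showed the largest difference of the luminal chaperones. Its 6 light phase libraries held 513, 498, 591, 471, 446 and 443 scaled TPM, and the 6 dark phase libraries 956, 880, 1073, 1038, 971 and 1039. Every dark phase rat thus lay at least 289 TPM above every light phase rat. The mean rose from 494 ± 55 to 993 ± 70.8 TPM (SD, n = 6), a log2 fold change of 1.01 ± 0.07 (SE, limma FDR = 1.62e-06). Among the 996 genes that averaged 100 TPM or more, this was the highest log2 fold change in this fit.

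HSP90B1, the Hsp90 of the ER, was at 255 to 292 TPM (median 281) in light phase rats and at 412 to 562 TPM (median 477) in dark phase rats. The log2 fold change was 0.79 ± 0.06 (limma FDR = 4.23e-06), and the dark phase libraries were more spread (SD 48.9 TPM) than those of the light phase (SD 12.8 TPM). HYOU1, the nucleotide exchange factor of HSPA5, was the least abundant of the 10 genes, at 30.2 to 37.4 TPM in the light phase (median 33.0) and 59.4 to 67.7 TPM in the dark phase (median 61.5). It rose by 0.90 ± 0.06 on the log2 scale (limma FDR = 5.93e-07). DNAJB11, the J-domain partner of HSPA5, rose less, from between 68.2 and 79.8 TPM (median 77.3) to between 87.0 and 97.4 TPM (median 93.5). Its log2 fold change was 0.30 ± 0.04 (limma FDR = 0.00048), so that the members of the HSPA5 machinery did not rise by the same amount.

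The lectin chaperones also differed from one another. CALR was the most abundant of the 10 genes in both phases, with 655 to 703 TPM in the light phase (median 680) and 992 to 1076 TPM in the dark phase (median 1047). The log2 fold change was 0.62 ± 0.03 (limma FDR = 2.01e-07), and the 2 ranges lay far apart relative to their spread. CANX, its membrane-bound counterpart, held 252 to 276 TPM in the light phase (median 267) and 287 to 307 TPM in the dark phase (median 303). This was the smallest of the called differences, at 0.17 ± 0.03 (limma FDR = 0.00406). PDIA3, which binds both lectins, rose from between 524 and 562 TPM (median 540) to between 638 and 670 TPM (median 642), a log2 fold change of 0.25 ± 0.03 (limma FDR = 0.000144).

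Among the remaining disulfide isomerases the differences ran from the size of HSPA5 to no detectable difference. PDIA4 was at 42.6 to 55.5 TPM in the light phase (median 45.6) and at 87.4 to 98.5 TPM in the dark phase (median 90.6), a log2 fold change of 0.96 ± 0.06 (limma FDR = 5.22e-07). PDIA6 moved from 266 to 299 TPM (median 272) to 328 to 352 TPM (median 344), a rise of 0.31 ± 0.03 on the log2 scale (limma FDR = 9.02e-05). P4HB held 158, 182, 162, 167, 162 and 160 TPM in the light phase and 170, 168, 161, 166, 166 and 171 TPM in the dark phase. The phases overlapped, and the log2 fold change of P4HB was 0.02 ± 0.04 (limma FDR = 0.799, two-sided exact permutation test p = 0.66). For each of the other 9 genes the same exact permutation test gave p = 0.00216, the smallest value that 6 libraries against 6 allow.

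**Figure D3:**
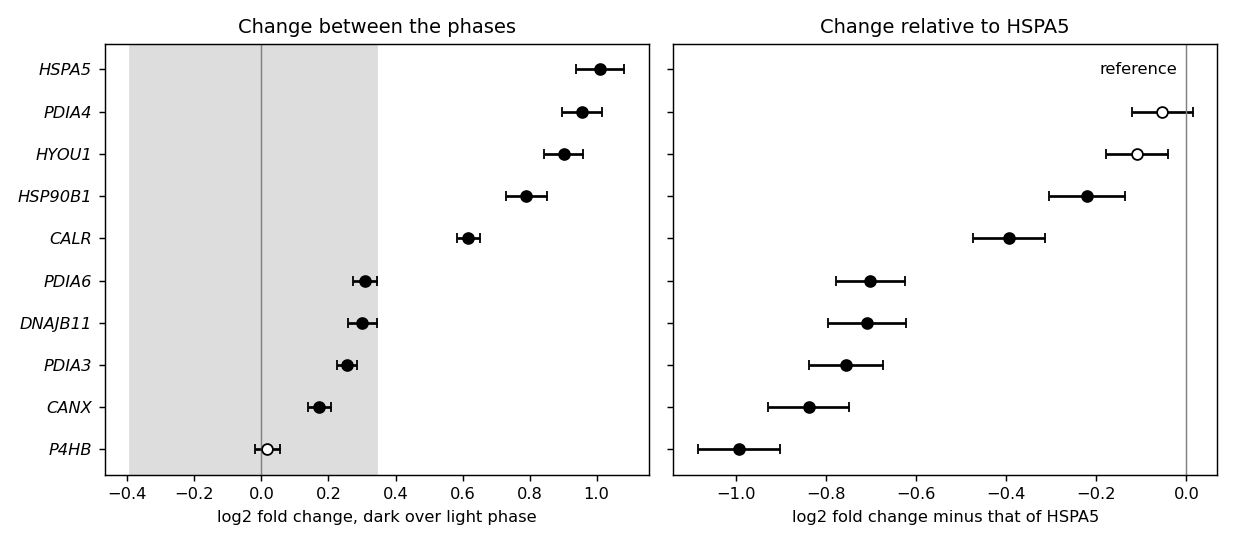
Log2 fold change, dark phase minus light phase, of each gene with its standard error from limma (6 libraries per phase), filled where the FDR was below 0.05. The grey band spans the 5th to 95th percentile of all genes tested (-0.39 to 0.34), and HSPA5, PDIA4, HYOU1, HSP90B1 and CALR lie above it.

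The unequal differences changed the composition of the group. The 10 genes summed to 2755 to 3020 TPM in the light phase (median 2833) and to 3951 to 4439 TPM in the dark phase (median 4250). HSPA5 made up 16.0 to 19.6% of this sum in the light phase and 22.3 to 24.3% in the dark phase, without overlap, while P4HB went from 5.38 to 6.41% to 3.62 to 4.25%. The share of CALR was close to constant, with 23.3 to 24.1% against 23.9 to 25.2%. In the order of levels, CALR led in both phases. In the light phase PDIA3 (mean 542 TPM) and HSPA5 (494 TPM) followed with overlapping ranges, whereas in the dark phase HSPA5 (993 TPM) overlapped CALR (1042 TPM) and lay above PDIA3 (646 TPM) in every library. HSP90B1, PDIA6 and CANX overlapped as neighbours in the light phase, where they had means of 278, 276 and 265 TPM. At the lower end of the dark phase order, DNAJB11 (93.3 TPM) and PDIA4 (91.2 TPM) overlapped, although DNAJB11 had been the higher in every light phase library.

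Each gene was also set against HSPA5 in the same library, a difference that hardly depends on the scaling between libraries. This contrast was called lower than HSPA5 for 97.4% of all genes tested, so a call says little about a given gene, and the size carries the information. PDIA4 and HYOU1 were not separated from HSPA5, with differences of -0.05 ± 0.07 (limma FDR = 0.444) and -0.11 ± 0.07 (limma FDR = 0.132) on the log2 scale. Both had entered the set only because the study had called them different between the phases in these samples. The ratio of HSPA5 to PDIA4 transcripts was 10.1 to 11.5 in the light phase and 10.1 to 11.6 in the dark phase, and that to HYOU1 was 13.6 to 15.8 and 14.8 to 17.0. HSP90B1 changed by 0.22 less than HSPA5 (-0.22 ± 0.08, limma FDR = 0.0190), which kept its size but was no longer called when the ratio of FPKM to TPM entered the model (-0.21, FDR = 0.131), and CALR by -0.39 ± 0.08 (limma FDR = 1.77e-04). PDIA6, DNAJB11, PDIA3 and CANX lay between -0.70 and -0.84 and P4HB at -0.99. HSPA5 outnumbered P4HB 2.73 to 3.64 times in the light phase and 5.24 to 6.68 times in the dark phase.

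Beside their promoters, HSPA5, HSP90B1 and CALR, which held ERSE, had log2 fold changes of 1.01, 0.79 and 0.62, but CANX, which held it too, had 0.17. HYOU1 and DNAJB11, with ERSE-II, had 0.90 and 0.30. PDIA4 and P4HB, with neither, had 0.96 and 0.02. The promoters with ERSE contained genes of large and of small difference. PDIA4 and HYOU1 were in the set only because the study had called them in these samples. Without them, only P4HB stood for promoters with neither element and only DNAJB11 for ERSE-II. No test was made over 8 promoters.

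From rat to rat the genes correlated with one another to unequal degrees. After each gene was centred within its phase, 34 of the 45 pairs had a Pearson r above 0 over the 12 libraries, with a median of 0.28. The r of HSPA5 was 0.84 with PDIA4, 0.82 with HYOU1, 0.81 with CALR, 0.80 with PDIA6, 0.60 with PDIA3 and 0.52 with HSP90B1. The highest r of all pairs was 0.92, between PDIA4 and PDIA6, and HYOU1 had 0.69 and 0.65 with these. CALR was less close to PDIA4 (0.51), HYOU1 (0.52) and PDIA6 (0.55) than to HSPA5, and reached 0.58 with PDIA3 and 0.56 with HSP90B1. P4HB ran the other way to CANX (r = -0.66), DNAJB11 (-0.65) and PDIA3 (-0.65). Light phase rat 2 weighed on these values. It had the highest P4HB of its phase (182 TPM) and the lowest CANX (252 TPM), DNAJB11 (68.2 TPM) and PDIA3 (524 TPM). Its scaling factor (1.05) was also the highest of all libraries, and whether the negative r holds without it was not tested. The correlation with the mean of the other genes was highest for HSPA5 (0.93), near 0 for CANX (0.08) and negative for P4HB (-0.40). Light phase rat 3, for instance, had the highest HSPA5, HYOU1, PDIA4, PDIA6 and CALR of its phase. All points share their library and its scaling, and pairs of other genes were not examined as a background. The values are therefore a description and do not set these genes apart from others.

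**Figure D4:**
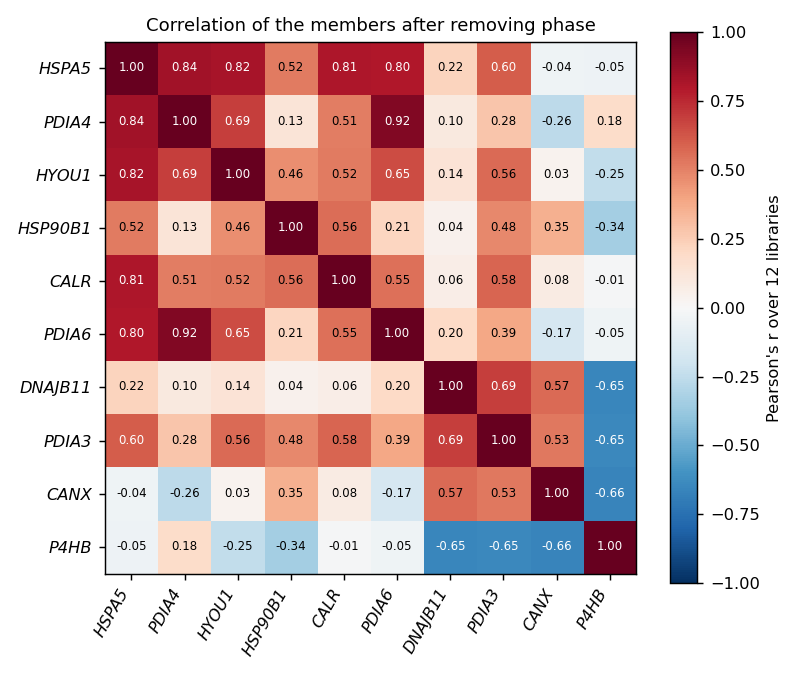
Pearson r between the 10 genes over 12 libraries, each gene centred within its phase. HSPA5 and PDIA4 reach r = 0.84, and P4HB is negative with CANX, DNAJB11 and PDIA3.

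Other genes of ER folding were followed in 8 lists by role, and chaperones outside the ER in a further list. Of 103 symbols in the ER lists 62 could be paired with an identifier, 45 through the abundance table and 17 only through the table of differentially expressed genes. Among the 45, 9 were called higher in the dark phase (20%, against 8.71% of all abundance table genes). Another 2 were called higher in the light phase, against 13.9% of all abundance table genes, and 34 were not called. The median log2 fold change was 0.01. With the ratio of FPKM to TPM in the model, the calls among the 45 went from 11 to 1. That ratio partly follows the phase, so lost calls do not tell the 2 apart. The 17 other genes were held only because the study had called them in these samples, and 10 of them were called higher and 1 lower here, which is not independent evidence of a direction. The naming rule took 30 listed genes, in all 9 lists, mostly for the smallest p. That 24 of them were called thus follows largely from the rule. Of the 24, 6 stayed called under every alternative tried, the covariate included: CREB3L1, CRELD2, MANF, UGGT1, SEL1L and HSP90AA1. CREB3L1, CRELD2, UGGT1 and SEL1L were paired only as called genes, so they are not independent evidence either.

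**Figure D5:**
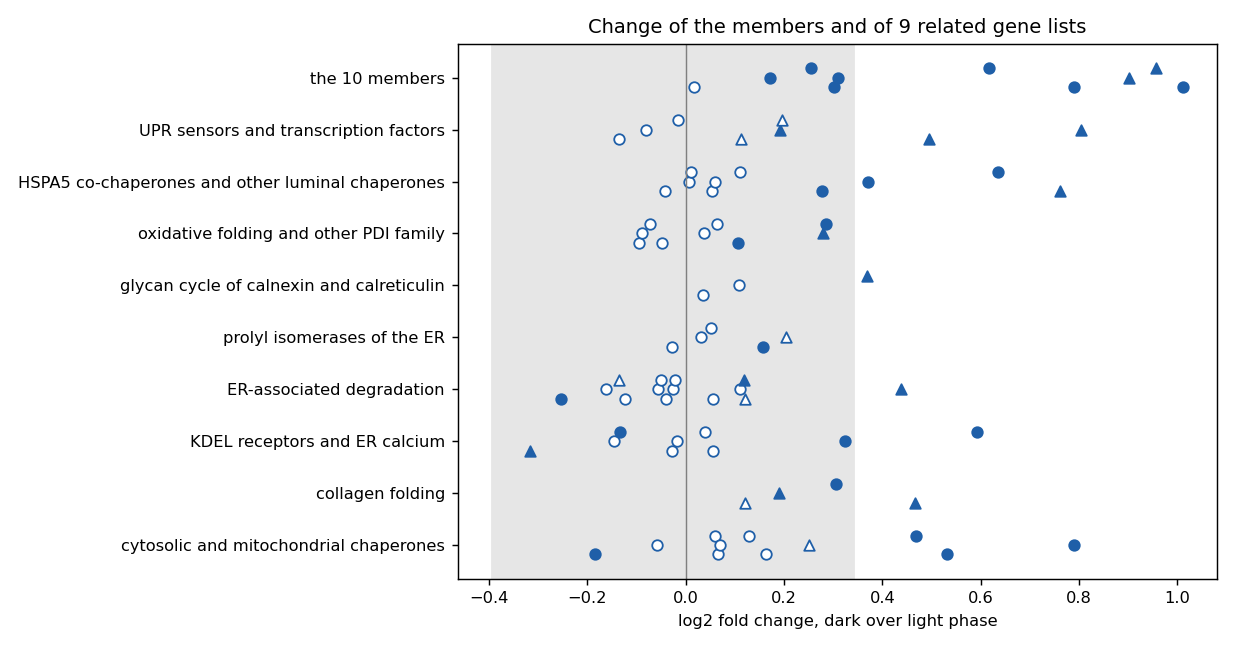
Log2 fold change, dark phase minus light phase, of each paired gene in the 9 lists, with circles for symbols from the abundance table, triangles for symbols only from the table of differentially expressed genes, and filled markers for an FDR below 0.05. Most circles lie near 0, with 40 of 55 not called.

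Transcription factors of the unfolded protein response gave a mixed picture. Of the 3 genes that the abundance table paired with a symbol, 0 were called. In limma, 749 of all 1997 tested genes of the abundance list had an unadjusted p below 0.05. Of the 3 genes, 1 had this in limma and in the exact permutation test. This was ATF4, with 154 to 188 TPM in the light phase and 147 to 168 TPM in the dark phase (log2 fold change -0.14, limma FDR = 0.101). XBP1, whose spliced form drives ER chaperone genes, was at 30.7 to 56.5 TPM in the light phase (median 40.0) and at 48.0 to 69.9 TPM in the dark phase (median 61.2). The ranges overlapped and the call (0.49 ± 0.14, limma FDR = 0.0260) was lost without light phase rat 1, 4 or 6 or dark phase rat 4, 5 or 6 (FDR 0.0511 to 0.0571). With the replicate number as a block the FDR was 0.0792, and with the covariate the log2 fold change was 0.30 (FDR = 0.5). CREB3L1, an ER-bound factor of secretory cells, rose without overlap from 12.5 to 16.2 TPM to 21.1 to 28.4 TPM (0.80 ± 0.08, limma FDR = 4.48e-05), and its relative CREB3L2 by 0.19 (limma FDR = 0.0381) with overlap. DDIT3 (CHOP), the factor of the late stress response, had a log2 fold change of 0.20 (limma FDR = 0.0665). XBP1, CREB3L1, CREB3L2 and DDIT3 were paired only through the table of differentially expressed genes, and ATF6, ERN1 and EIF2AK3, the stress sensors, were not analysed here.

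Of 9 HSPA5 co-chaperones and other luminal chaperones from the abundance table, 3 rose and 6 were not called. MANF, a secreted and ER-resident protein that binds HSPA5, went from 181 to 274 TPM (median 212) to 296 to 377 TPM (median 323), a log2 fold change of 0.64 ± 0.09 (limma FDR = 0.000442). DNAJC3 (p58IPK), a J-domain co-chaperone, rose by 0.28 ± 0.05 (limma FDR = 0.00248), and SDF2L1, named after its values were seen, by 0.37 ± 0.08 (limma FDR = 0.00812). CRELD2, paired only through the differentially expressed genes, rose from 17.0 to 21.4 TPM to 29.9 to 36.1 TPM (0.76 ± 0.06, limma FDR = 6.24e-06). In the oxidative folding list 2 of 8 rose: ERP44, which retains thiol proteins at the exit of the ER, by 0.29 ± 0.04 (limma FDR = 0.000354), and TXNDC5 by 0.11 ± 0.03 (limma FDR = 0.0467). ERO1A, the oxidase of the disulfide isomerases, rose by 0.28 ± 0.07 (limma FDR = 0.0216) but was paired only as a called gene.

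The glycan cycle that feeds CALR and CANX had 0 of 2 abundant members called by limma, with 1 at an unadjusted p below 0.05 in limma and in the exact permutation test. Of all 1997 tested genes of the abundance list, 749 had such a p in limma. GANAB and PRKCSH, the subunits of glucosidase II, were not called, at 0.11 (limma FDR = 0.0555) and 0.03 (limma FDR = 0.590) on the log2 scale, and UGGT1, the folding sensor, rose by 0.37 ± 0.05 (limma FDR = 0.000196) but was paired only as a called gene. Of 4 prolyl isomerases 1 rose, FKBP2 (0.16, limma FDR = 0.0130), where 8.71% of all abundance list genes were called up in darkness and 13.9% up in light. PPIB, at 273 to 296 TPM against 289 to 311 TPM, was not called (0.05, limma FDR = 0.335). FKBP14, paired only through the differentially expressed genes, was not called either (0.20, limma FDR = 0.0530). For ER-associated degradation, 0 of 10 rose in the limma fit. At an unadjusted p below 0.05, 1 was higher and 3 were lower in the dark phase by limma, and 1 was higher and 4 were lower by the exact permutation test. The 749 of 1997 abundance list genes below this p in limma, in either direction, are the background for these counts. UFD1 fell, an adaptor of the p97 segregase (-0.25 ± 0.04, limma FDR = 0.00118). SEL1L and SYVN1, the core of the HRD1 ubiquitin ligase, rose by 0.44 ± 0.04 (limma FDR = 4.81e-06) and 0.12 ± 0.04 (limma FDR = 0.0471), both paired only as called genes.

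ATP2A2 (SERCA2), the calcium pump that fills the ER, rose from 100 to 128 TPM (median 117) to 134 to 152 TPM (median 147), a log2 fold change of 0.32 ± 0.05 (limma FDR = 0.00139). KDEL receptors return escaped HSPA5, HSP90B1, CALR and isomerases to the ER. KDELR1 fell by 0.13 (limma FDR = 0.0290) and KDELR3, paired only as a called gene, fell by 0.32 (limma FDR = 0.0117). With RCN2, a calcium-binding protein named after its values were seen (0.59 ± 0.19, limma FDR = 0.0464), 2 of 8 genes of this list rose and 1 fell. The shares over all abundance list genes were 8.71% up in darkness and 13.9% up in light, so these counts are a description. In the collagen folding list, which is relevant to P4HB as a prolyl hydroxylase subunit, SERPINH1 (HSP47) rose without overlap, from 208 to 263 TPM to 278 to 292 TPM (0.31 ± 0.06, limma FDR = 0.00234). P4HA1, the catalytic partner of P4HB, rose by 0.47 ± 0.13 (limma FDR = 0.0226) and PLOD3 by 0.19 ± 0.06 (limma FDR = 0.0346), both with overlapping ranges and paired only as called genes, while P4HB itself was not called.

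Chaperones outside the ER were listed for comparison, and 3 of 10 rose and 1 fell. Among all abundance list genes 8.71% were called up in darkness and 13.9% up in light. HSP90AA1 and HSP90AB1, the cytosolic counterparts of HSP90B1, rose by 0.79 ± 0.08 (limma FDR = 3.96e-05) and 0.47 ± 0.07 (limma FDR = 0.000705), both without overlap. HSP90AA1 thus had the same log2 fold change as HSP90B1 to 2 decimals, with the covariate 0.71 against 0.68, and whether they differ was not tested. HSPH1, a cytosolic nucleotide exchange factor related to HYOU1, rose by 0.53 ± 0.09 (limma FDR = 0.00204), and HSPA9, the mitochondrial Hsp70, fell by 0.18 (limma FDR = 0.00649), both with overlapping ranges.

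Some of the smaller calls among the listed genes depended on single rats. TXNDC5 kept its call only without light phase rat 2 or dark phase rat 6, and FDR reached 0.1 otherwise. SYVN1 kept it without light phase rat 3 or 6 or dark phase rat 5 (FDR up to 0.0970 otherwise), and CREB3L2 without light phase rat 2 or 3 or dark phase rat 2 or 5 (up to 0.0809). PLOD3 kept it without light phase rat 3 or 4 or dark phase rat 2, 5 or 6 (up to 0.0740). KDELR1 lost its call without light phase rat 1, 4 or 6 or dark phase rat 3, 4 or 5 (up to 0.0631), P4HA1 without light phase rat 6 or dark phase rat 4 (up to 0.0513), and ERO1A without dark phase rat 3 (0.0503). RCN2 kept its call only without light phase rat 2 or 3 or dark phase rat 3 (up to 0.0999 otherwise), and with the covariate its log2 fold change was 0.32 (FDR = 0.609). SDF2L1 kept its call without any single rat but not with the covariate (0.38, FDR = 0.161). Other calls were also lost in at least 1 alternative. The smallest change and the highest FDR over the alternatives were 0.15 and 0.259 for DNAJC3 and 0.20 and 0.211 for SERPINH1. They were 0.22 and 0.578 for P4HA1, and -0.14 and 0.519 for KDELR3. By contrast, the count of 9 of the 10 chaperone and isomerase genes stood at 9 without any single rat.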

How the data were processed

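Choroid plexus RNA from 12 rats was measured, 6 per phase, with 1 library per rat. Per the labels, the authors aligned reads to Rnor_6.0 with STAR 2.7.9a and quantified genes with RSEM 1.3.3. The deposited values are TPM and FPKM per gene. The authors used RSEM TPM as normalized expression, and deposited FPKM was used here only for relative depth and for the FPKM to TPM ratio. The authors tested read counts with DESeq2. As the files hold no counts, limma 3.58.1 in R 4.3.3 took its place. Python 3.11.15 made the summaries, exact tests and figures.

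TPM was scaled per library by a trimmed mean of ratios (30% of ratios and 5% of levels trimmed at each end) and tested as log2(scaled TPM + 0.5), with phase as the only term, a trend of variance with the mean, a minimum mean of 1 TPM and an FDR of 0.05. The added 0.5 TPM understates changes of low genes. The steps were tested on simulated data. How reads shared with similar copies, such as HSP90 pseudogenes, were divided was not examined. No library was a copy of another (0 identical pairs, correlations 0.959 to 0.983). Read depth behind each value is unknown, so the error given is the spread between rats.

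The genes and lists were chosen with earlier results of these data known. Symbols came only from the study's tables, held in part. Named were the 10 genes, 6 factors and sensors of the unfolded protein response where paired, from each list the 3 genes with the smallest p and any against the majority, and the 8 genes most correlated with the 10. Replicate numbers were checked for pairing. Alternatives were other scalings, pseudocounts, filters, variance models, a covariate, a replicate block and leaving out each library. Those for the lists and for all genes were chosen after seeing the data. Protein sequences and the CSF metabolites were not analysed here.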

Additional observations from a re-analysis of the deposited data

Results flagged for a closer look

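In 80 groups of 6 libraries (10 chaperone and isomerase genes and 30 listed genes, in each phase), 9 held a library that stood apart from the other 5 by Dixon's test at the 95% level. Chance alone would give about 4 (1 in 20 groups). Among the 10 genes these were PDIA3 in dark phase rat 3, at 670 TPM against 638 to 645 TPM in the others, PDIA6 in light phase rat 3, at 299 TPM against 266 to 278 TPM, and P4HB in light phase rat 2, at 182 TPM against 158 to 167 TPM. PDIA3 and PDIA6 did not overlap between the phases with these libraries included.

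Light phase rat 3 also stood apart in MANF (274 TPM against 181 to 214 TPM) and in HSPH1 (105 TPM against 68.2 to 79.9 TPM). Light phase rat 2 was low in FKBP14 (32 TPM against 38.1 to 40.7 TPM). In the dark phase, rat 3 was high in PLOD3 (45.9 TPM against 39.4 to 41.7 TPM), rat 4 low in ERP44 (65.5 TPM against 69.4 to 71.4 TPM) and rat 6 high in UFD1 (46.1 TPM against 42.0 to 43.5 TPM).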

How the results depend on the processing

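Over the alternatives tried for the 10 genes, 238 of 240 values kept their direction and side of the threshold. Both others arose when the ratio between the FPKM and TPM totals was a covariate, where CANX was no longer called (0.21, FDR = 0.0555) and P4HB turned to -0.033 (FDR = 0.802, not called in either fit). With the same covariate PDIA4 relative to HSPA5 turned to 0.041 (FDR = 0.704), calls among the abundant genes of all 9 lists went from 15 to 2 and calls over all genes from 2194 to 346. With symbols from all tables, 26 listed genes were called. With library weights, HYOU1 relative to HSPA5 was called (FDR = 0.0416). Rescaling without the 10 most abundant genes gave 1374 higher and 769 lower in the dark phase, against 1170 and 1024.

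Leaving out 1 library gave 9 to 9 of the 10 genes called, 7 to 7 relative to HSPA5, 12 to 17 listed genes and 1677 to 2256 over all genes. Of the values of the 30 named listed genes, 595 kept their direction and side of the threshold, 80 lost the call, 15 gained it and 0 reversed. With the replicate number as a block, 9 of the 10 genes and 1573 of all genes were called. The numbers did not pair the samples (same-number r -0.11 to 0.05, and 0 of 6 libraries correlated best with their own number). Of the 8 genes most correlated with the 10, 3 stayed by Spearman's rho and 3 with TPM as deposited. The cause of these changes was not tested. Without read counts, the depth limit of a gene cannot be given.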

Other observations

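Among 2600 genes with a symbol and a mean of at least 20 TPM, 8 followed the mean profile of the 10 chaperone and isomerase genes most closely from rat to rat, after centring within the phase. NXF1, the main mRNA export receptor, had r = 0.90 over the 12 libraries, the RNA helicase DDX17 0.87, PALMD 0.85, the cytosolic chaperone HSP90AB1 0.85, HNRNPU, a nuclear RNA-binding protein, 0.85, DDX39B, a helicase of mRNA export, 0.84, TRIM26 0.84 and the kinesin KIF5C 0.83. Of these, NXF1 (log2 fold change 0.40, limma FDR = 0.00152), HSP90AB1, PALMD (0.22, limma FDR = 0.0405) and KIF5C (0.30, limma FDR = 0.0176) were also called higher in the dark phase, while DDX17 (0.17, limma FDR = 0.202), TRIM26 (0.19, limma FDR = 0.0616), HNRNPU (0.0012, limma FDR = 0.988) and DDX39B (-0.10, limma FDR = 0.287) were not called. The 8 are the top of 2600 candidates, share their libraries and scaling with the 10 genes, and are given as a description. The profile itself had r = -0.20 with the FPKM to TPM ratio of the library.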
